A study of Mus musculus with 19 samples.

Results

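Genes of heart muscle were followed in whole-lung RNA: Myh6, Myl7, Myl4, Myl3, Actc1, Tnnt2, Tnni3, Csrp3, Sln and Nppa. These 10 genes were chosen by their log2 ratios and red signals on these same arrays, so their levels, spread and joint movement are given as a description with no test of their own. All probes whose RefSeq accession mapped to 1 of the 10 symbols were taken, which gave 11 of 55681 probes and 10 of the 20660 gene symbols on the array. All 11 were among the 31119 probes that passed the filter on dim signal, and Myh6 had a pair of probes. Lung RNA came from adult male MutaMouse animals, a lacZ transgenic strain used for mutation assays, aged about 12 weeks. They were gavaged daily for 28 days, either with olive oil alone (D0, 5 mice) or with the same oil carrying 8 mixed polycyclic aromatic hydrocarbons (PAHs). Expressed as benzo[a]pyrene (BaP) equivalents, the daily doses per kg of body weight were 15 mg in D1 (4 mice), 30 mg in D2 (5 mice) and 60 mg in D3 (4 mice). Lungs were collected 72 h after the final gavage. RNA was extracted from random sections of the lung, labelled red with Cy5 and hybridised beside a green, Cy3-labelled reference RNA pooled from 11 mouse cell lines. A value is the log2 ratio of red over green for 1 mouse, and mouse 35 of D3 is the mean of a pair of arrays.

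Striated muscle shortens when the thick filaments, built of myosin heavy and light chains, slide along thin filaments of actin, tropomyosin and troponin under the control of calcium. In the mouse, heart muscle is not limited to the heart: a sleeve of atrial-type cardiac muscle runs along the pulmonary veins into the lung. Atrial muscle is marked by the light chains Myl7 and Myl4, by the calcium pump inhibitor Sln and by the hormone Nppa, whereas Myl2 marks ventricular and slow muscle. In whole-tissue RNA, fewer cells of a type and less RNA per cell cannot be told apart. How much vein each lung section held is not given in the sources used here.

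Arrays had a median red signal of 114 to 151 and a median green signal of 65 to 93, and between 54.5% and 64.7% of spots were well above background in red. Markers of lung were present: 10 genes of lung epithelium and vessels, among them the surfactant genes Sftpc and Sftpb and the club cell gene Scgb1a1, were all well above background in 18 of 18 mice. The mean of this list lay between 6.07 and 6.89 in every mouse, and it was 6.82, 6.32 and 6.53 in mice 24, 28 and 35. Mouse 23 carries a D2 label but a number from the D1 series, and was left in D2. The group sizes given in the study's methods also place it in the low-dose group, so the changes of Nppa and of the median gene at D1 and D2 are given both ways. The array column on each slide followed the dose, so that column and dose cannot be told apart.

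Of the 10 genes, 8 were high in 15 of the 18 lungs and far lower in D1 mouse 24, D2 mouse 28 and D3 mouse 35. Actc1 was lowest in these 3 mice by a small gap, and Nppa did not separate them from the rest. In these mice Sln and Csrp3 were not well above background. The mean log2 ratio of the 10 genes was 3.21, 3.29, 2.31, 3.34 and 3.11 in D0 mice 1 to 5. In D1 it was 4.15, 4.80, 0.44 and 3.29 in mice 21, 22, 24 and 25. In D2 it was 4.02, 0.31, 3.62, 3.02 and 3.80 in mice 26, 28, 29, 30 and 23, and in D3 it was 3.35, 3.16, 4.34 and 0.35 in mice 31, 32, 34 and 35. Each treated group thus held 1 low mouse and D0 held none, while the highest values, those of mice 22, 34, 21 and 26, were also in treated groups. Both arrays of mouse 35 were low, with differences between them from -0.79 for Myh6 to 0.10 for Csrp3. The low mice were not on 1 slide: mouse 28 was on slide 1, mouse 24 on slide 2 and mouse 35 on slides 2 and 3, and each of these slides also carried mice with a mean of at least 3.02.

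**Figure D1:**
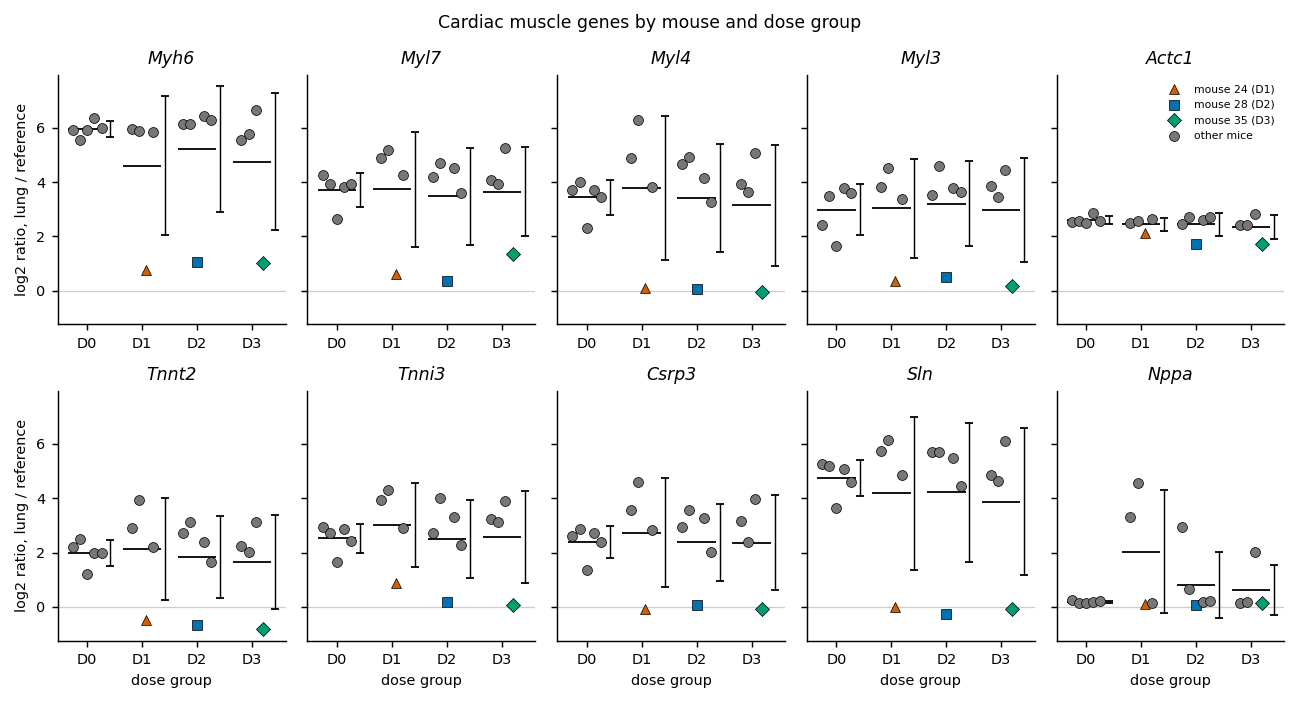
Log2 ratio of lung over reference RNA (vertical axis) of the 10 cardiac genes, 1 point per mouse, by dose group (horizontal axis); horizontal lines are group means and bars 1 SD. Mice 24, 28 and 35 (coloured symbols) lie under the other 15 in every panel except that of Nppa, where they read 0.12, 0.06 and 0.15.

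Among the myosins, Myh6, which encodes the alpha heavy chain that is the main myosin motor of the adult mouse heart, separated these mice most widely. Log2 ratios of its brighter probe (NM_001164171) in D0 mice 1 to 5 were 5.92, 5.55, 5.92, 6.37 and 5.99, and in D1 mice 21, 22, 24 and 25 they were 5.95, 5.87, 0.76 and 5.83. Myh6 read 6.14, 1.06, 6.44, 6.29 and 6.15 in D2 mice 26, 28, 29, 30 and 23, and 5.57, 5.77, 6.66 and 1.03 in D3 mice 31, 32, 34 and 35. The lowest of the 15 higher mice, at 5.55, lay 4.49 above the highest of the low mice, and the 15 spanned little more than 1 log2 unit, up to 6.66. In red signal the same probe ran from 12014 to 92590 in the 15 mice, against 219 in mouse 24, 234 in mouse 28 and 361 in mouse 35. The dimmer Myh6 probe ran from 0.83 to 3.45 in the 15 mice and was not well above background in the other 3.

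Myl7 and Myl4 encode the atrial regulatory and essential light chains of myosin. Log2 ratios of Myl4 (NM_010858) in D0 mice 1 to 5 were 3.71, 4.00, 2.33, 3.71 and 3.45, and in D1 mice 21, 22, 24 and 25 they were 4.89, 6.29, 0.09 and 3.83. Myl4 read 4.94, 0.06, 4.14, 3.28 and 4.68 in D2 mice 26, 28, 29, 30 and 23, and 3.92, 3.65, 5.09 and -0.06 in D3 mice 31, 32, 34 and 35. Myl4 therefore spanned 81.2-fold in ratio over the 18 mice, with mouse 22 at the top and mouse 35 at the bottom. Myl7 (NM_022879) ranged from 2.65 to 4.28 in D0, reached 5.26 in D3 mouse 34 and was 0.61, 0.36 and 1.34 in mice 24, 28 and 35. Myl3 (NM_010859), the essential light chain of ventricular and slow muscle, ranged from 1.66 to 3.79 in D0, reached 4.59 in D2 mouse 26 and was 0.38, 0.51 and 0.18 in the same mice. For each of these light chains the low mice did not overlap the rest.

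Thin filament genes had the same mice lowest. Tnnt2 (NM_011619), which encodes the troponin subunit that anchors the complex to tropomyosin, ranged from 1.21 to 2.51 in D0, reached 3.93 in mouse 22 and was -0.48, -0.68 and -0.82 in mice 24, 28 and 35. Tnni3 (NM_009406), the inhibitory subunit of cardiac troponin, ranged from 1.66 to 2.95 in D0, reached 4.30 in mouse 22 and was 0.89, 0.19 and 0.09 in those mice. The lowest of the other 15 was D0 mouse 3 for both, at 1.21 and 1.66. Actc1 (NM_009608), cardiac alpha actin, moved far less on the ratio scale. Its log2 ratios in D0 mice 1 to 5 were 2.51, 2.58, 2.50, 2.86 and 2.55, and in D1 mice 21, 22, 24 and 25 they were 2.50, 2.59, 2.11 and 2.63. Actc1 read 2.72, 1.71, 2.62, 2.73 and 2.44 in D2 mice 26, 28, 29, 30 and 23, and 2.41, 2.43, 2.82 and 1.73 in D3 mice 31, 32, 34 and 35. Mice 24, 28 and 35 were again the lowest, but the gap to the next mouse was 0.30 and the whole range was 2.22-fold. Its red signal ranged 10.3-fold, from 1454.5 to 14970.

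Sln (NM_025540) encodes sarcolipin, a small membrane peptide that restrains the calcium pump of the sarcoplasmic reticulum. Sln log2 ratios in D0 mice 1 to 5 were 5.25, 5.19, 3.66, 5.09 and 4.59, and in D1 mice 21, 22, 24 and 25 they were 5.73, 6.13, 0.01 and 4.84. Sln read 5.72, -0.25, 5.47, 4.46 and 5.71 in D2 mice 26, 28, 29, 30 and 23, and 4.84, 4.63, 6.11 and -0.06 in D3 mice 31, 32, 34 and 35. Sln was not well above background in mice 24, 28 and 35, where neither channel gave a measured level, and the gap in its ratios as read to the next mouse, D0 mouse 3, was 3.65. Csrp3 (NM_013808), a LIM protein of the Z disc, ranged from 1.37 to 2.86 in D0, reached 4.61 in mouse 22 and was -0.07, 0.09 and -0.07 in mice 24, 28 and 35, where it too was not well above background. Within D0, mouse 3 had the lowest value of Myl7, Myl4, Myl3, Tnnt2, Tnni3, Actc1, Sln and Csrp3, and its mean over the 10 genes was 2.31 against 3.11 to 3.34 in the other D0 mice.

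Nppa (NM_008725), which encodes the precursor of atrial natriuretic peptide, a hormone that atrial muscle secretes, followed another pattern. Its log2 ratios in D0 mice 1 to 5 were 0.24, 0.13, 0.15, 0.18 and 0.22, and in D1 mice 21, 22, 24 and 25 they were 3.30, 4.57, 0.12 and 0.14. Nppa read 0.64, 0.06, 0.19, 0.21 and 2.93 in D2 mice 26, 28, 29, 30 and 23, and 0.13, 0.19, 2.02 and 0.15 in D3 mice 31, 32, 34 and 35. Nppa was thus high in 4 mice, 22, 21, 23 and 34, modest in mouse 26 and between 0.06 and 0.24 in the other 13, all 5 vehicle mice included. The 5 mice with the highest Nppa ranked 1, 4, 6, 2 and 3 by the mean of the other 9 genes. Mouse 29, which ranked 5 by those genes at 4.00, had an Nppa of 0.19, and D3 mouse 31, which ranked 7, had 0.13. High Nppa was found in mice rich in the other transcripts, but not in all of them, and the low mice could not be told from vehicle mice by Nppa. In the 13 mice between 0.06 and 0.24, the red signal of Nppa was 112 to 148, close to the median signal of an array. Nppa therefore had no room to fall below the vehicle mice in mice 24, 28 and 35. With mouse 23 counted in D1, the mice with high Nppa were 3 in D1, 1 in D3 and none in D2, and the fitted log2 change of Nppa from D0 went from 1.85 to 2.03 at D1 and from 0.62 to 0.09 at D2, with no call either way.

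**Figure D2:**
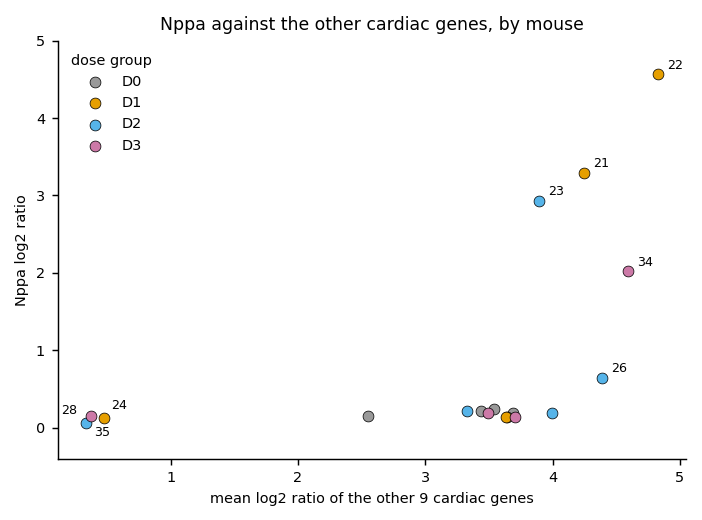
Nppa log2 ratio (vertical axis) against the mean log2 ratio of the other 9 cardiac genes (horizontal axis), 1 point per mouse, coloured by dose group; numbers name the 5 mice with the highest Nppa and the 3 with the lowest means. Nppa stays between 0.06 and 0.24 up to a mean of 3.70, and reads 0.19 to 4.57 in the mice above it.

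The spread between mice of 1 dose group placed these genes among the most variable on the array. The within-group SD of the log2 ratio was 2.30 for Sln, the highest of 31119 tested probes, 2.09 for Myh6 (rank 3), 1.95 for Myl4 (rank 5) and 1.60 for Myl7 (rank 9). Myl3 (1.56), Csrp3 (1.48), Tnnt2 (1.45), Tnni3 (1.34) and Nppa (1.30) ranked 12, 14, 18, 25 and 29. The median over all tested probes was 0.154 and the 99th percentile 0.558. Actc1, with an SD of 0.34, ranked 1442. The SDs and ranks of Sln and Csrp3 rest on ratios as read, which in mice 24, 28 and 35 are not measured levels. Of the 20 most variable probes 7 belonged to these genes and 3 to the further heart genes described next, and of the top 100 the counts were 10 and 16. Without mice 24, 28 and 35 the median SD of the 11 probes was 0.623, against 1.48 with them.

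**Figure D3:**
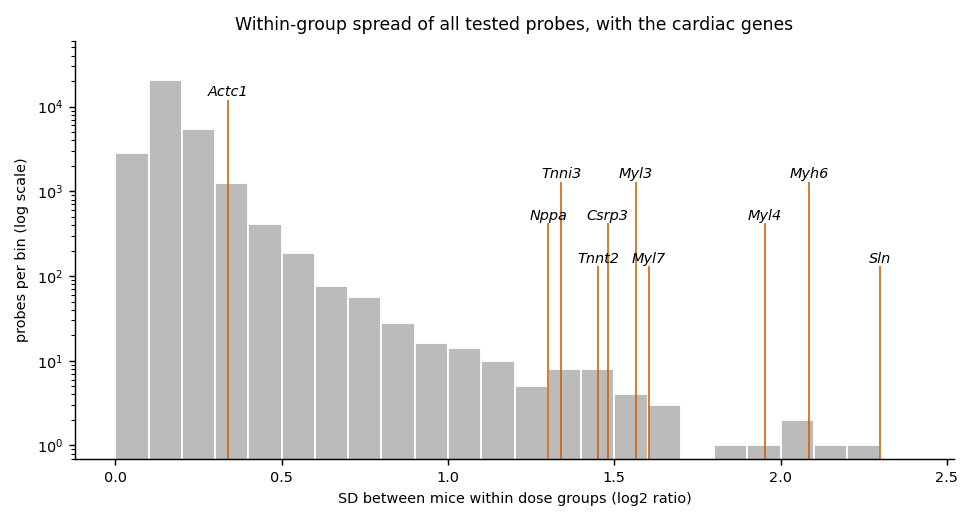
Number of tested probes (vertical axis, log scale) by the SD of the log2 ratio between mice of 1 dose group (horizontal axis, bins of 0.1); vertical lines mark the brighter probe of each of the 10 cardiac genes. Sln lies at 2.30, and 9 of the 10 genes lie beyond 1.2, while the median probe is at 0.154.

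The genes also moved together among the 15 mice with high values. With each value taken relative to the mean of its dose group, Pearson's r among Sln, Tnnt2, Tnni3, Myl7, Myl4, Csrp3 and Myl3 was between 0.654 and 0.988 over 21 pairs, with a median of 0.871. The closest pair was Tnnt2 and Myl4. Myh6 and Actc1 were looser on the ratio scale, with a median r of 0.264 and 0.325 against their 8 partners other than Nppa, and the 9 pairs with Nppa had a median of 0.456. Over all 45 pairs the median was 0.672 in 15 mice, and 0.948 in 18, a value set largely by mice 24, 28 and 35. These points share their arrays, reference RNA and slide, and no p is given because the genes were chosen on these values.

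The green channel moved with red for several of these genes. All arrays carried the same reference RNA, and over all tested probes the median ratio of the highest to the lowest green signal was 1.46-fold. For Myl4 it was 1.38-fold, from 1121.5 to 1543, while red ran from 1201 to 87181. For the brighter Myh6 probe green ran from 70.5 to 2265, or 32.1-fold, and log2 red and log2 green correlated with r = 0.81 over the 18 mice. Green of Actc1 ran from 466 to 2527, or 5.43-fold (r = 0.71), and both genes were well above background in green in all 18 mice. Myl3 (r = 0.72) and Myl7 (r = 0.76) had green that followed red as closely, although their median r with partners on the ratio scale was 0.694 and 0.862. Green of dimmer genes was not well above background on every array, but in 14 mice for Myl3, 13 for Myl7, 9 for Nppa, 8 for Sln and 2 for Csrp3, so that the ratio of these genes is a lower bound where red was bright and green was not detected. With red alone, quantile normalised, the median r of Myh6 with its 8 partners was 0.958 and that of Actc1 0.818, and the median over all 45 pairs was 0.883 in 15 mice. The source of the green signal was not tested.

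**Figure D4:**
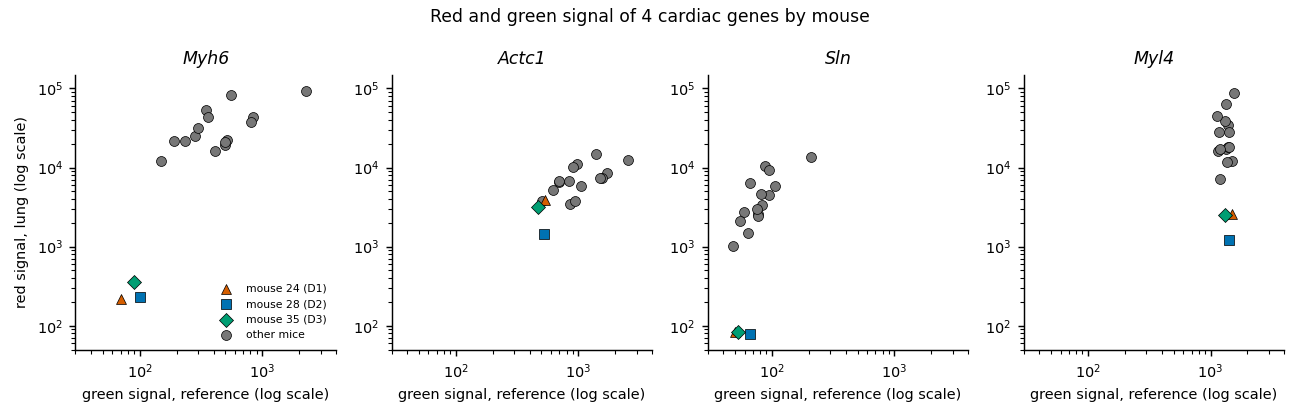
Red signal of lung RNA (vertical axis, log scale) against green signal of the reference RNA on the same array (horizontal axis, log scale) for Myh6, Actc1, Sln and Myl4, 1 point per mouse; coloured symbols are mice 24, 28 and 35. Green of Myh6 spans 70.5 to 2265 and rises with red, whereas green of Myl4 stays within 1121.5 to 1543.

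Since these genes moved together, the sequence before their start sites was examined for motifs of muscle promoters. RefSeq windows of 250 bases before and 50 after the start (build GRCm38.p6) were given for 9 of the 10 genes, all except Sln, and both strands were searched. The CArG box, the binding motif of serum response factor, was present in 3 of the 9, Myl7, Myl3 and Actc1, and in 1.63% of all 32851 windows. GATAA, the core motif of GATA factors, was present in 5 of the 9 and in 25.4% of all windows, TATAAA in 3 and in 13.6%, and the MEF2 site in none of the 9 and in 0.557%. The counts are of genes with a match in any window, whereas the percentages are of windows, so the units differ. Tnnt2 and Csrp3 had 2 windows each, and GATAA was in 1 of those of Tnnt2. The first base of the CArG box lay 61 bases before the start in Myl7, 85 in Myl3 and 47 in Actc1, and the 2 GATAA matches before the start of Nppa lay at 121 and 75 bases. A match describes the letters only, and binding was not measured. The 250 bases before the start are printed 5′ to 3′ on the gene's strand for these 4 genes, the 3 with a CArG box and Nppa, whose pattern over mice differed. Capitals mark CArG boxes, GATAA or its complement TTATC, and TATAAA, and no matches overlap in these stretches. The stretches are chr11:5898783-5899032 (minus strand), chr9:110763428-110763677 (plus), chr2:114052876-114053125 (minus) and chr4:148000472-148000721 (plus).
Myl7: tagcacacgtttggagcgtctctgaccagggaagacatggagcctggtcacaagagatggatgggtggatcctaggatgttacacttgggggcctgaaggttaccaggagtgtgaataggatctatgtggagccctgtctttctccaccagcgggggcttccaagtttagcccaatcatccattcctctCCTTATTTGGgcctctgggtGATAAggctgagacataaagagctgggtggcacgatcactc
Myl3: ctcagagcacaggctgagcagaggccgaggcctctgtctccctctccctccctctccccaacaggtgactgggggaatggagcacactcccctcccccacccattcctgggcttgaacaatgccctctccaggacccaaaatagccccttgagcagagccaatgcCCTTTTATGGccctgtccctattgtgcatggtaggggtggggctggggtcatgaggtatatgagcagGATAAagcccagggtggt
Actc1: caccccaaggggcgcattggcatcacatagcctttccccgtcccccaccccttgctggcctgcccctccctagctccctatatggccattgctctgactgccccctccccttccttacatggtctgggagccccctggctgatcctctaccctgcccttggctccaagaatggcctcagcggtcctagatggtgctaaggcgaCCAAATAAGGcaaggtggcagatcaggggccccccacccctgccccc
Nppa: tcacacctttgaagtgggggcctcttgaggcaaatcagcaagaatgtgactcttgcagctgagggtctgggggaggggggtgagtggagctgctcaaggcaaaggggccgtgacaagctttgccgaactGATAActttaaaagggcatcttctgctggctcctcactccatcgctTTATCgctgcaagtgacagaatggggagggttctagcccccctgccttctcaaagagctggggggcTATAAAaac

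None of the 10 genes was called at any dose, in groups whose spread was wide. Each dose was set against D0 in 1 limma fit, in which a call required both a 1.5-fold change and an adjusted p (Benjamini-Hochberg) no higher than 0.05. Of the 11 probes, 0 were called at D1, where 1.05% of the 31119 tested probes were called, 0 at D2 (0.623% of all) and 0 at D3 (2.42% of all). An unadjusted p under 0.05 was reached by 1 of the 11 at D1, that of Nppa, and by 0 at D2 and D3, against 19.7%, 14.7% and 26.2% of all tested probes. The median fitted log2 change was 0.16 at D1, -0.02 at D2 and -0.14 at D3, against 0.007, -0.004 and -0.002 over all tested probes. Single changes ran from -1.35 ± 1.20 (SE) for Myh6 to 1.85 ± 0.75 (SE) for Nppa, both at D1, the widest changes of the 11 probes. For Sln the SD was 0.67 in D0 (n = 5) and 2.83, 2.55 and 2.71 in D1 (n = 4), D2 (n = 5) and D3 (n = 4). These comparisons share the D0 mice.

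The median change depended on single mice. Without mouse 22 it was -0.44 at D1, without mouse 26 it was -0.39 at D2 and without mouse 34 it was -0.56 at D3. With mouse 23 counted in D1 it was 0.28 at D1 and -0.16 at D2. Mice 24, 28 and 35 were also left out together. They were picked for their low values of these genes and all came from treated groups, so leaving them out raises the treated means by construction. The median change was then 1.03 at D1, 0.56 at D2 and 0.59 at D3, and still 0 of the 11 probes were called at each dose, while 1.19%, 0.646% and 2.12% of all 30504 probes tested in that fit were. At D1, 3 mice remained, of which 21 and 22 had Nppa, Myl4 and Tnni3 above all D0 mice, while 25 lay within the range of D0.

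Other heart genes, from a list of 58 written with earlier results of these data known, gave a wider view of which cardiac transcripts went with them. Of the 57 on the array, 46 were tested by 51 probes, and of these genes 23 had mice 24, 28 and 35 as their lowest 3 and 38 had D1 mouse 22 as their highest. Genes of energy supply followed most closely: 8 of 9 had those mice lowest, and the mean of the 9 correlated with the mean of the 10 cardiac genes at r = 0.987 over the other 15. Mb, the oxygen store myoglobin, ran from 1.66 to 4.22 in the 15 mice and was not well above background in mice 24, 28 and 35. Ckmt2, the mitochondrial creatine kinase of muscle, ran from 1.46 to 5.20 and was not well above background in those mice either. Cox8b, a muscle subunit of cytochrome c oxidase, ran from 2.77 in mouse 35 to 5.24 in mouse 22, but D0 mouse 3 at 2.92 lay under mouse 24.

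Of the thin filament and Z disc genes 5 of 10 had mice 24, 28 and 35 lowest. Tnnc1, the calcium-binding troponin of heart and slow muscle, was lowest in mouse 24, read -0.66 and -0.73 in mice 28 and 35, and reached 3.62 in mouse 22, and Actn2, the Z disc alpha-actinin, was not well above background in those 3 mice and reached 3.53. Of 8 thick filament genes 4 did so, among them Mybphl, an atrial myosin-binding protein, which was not well above background in those mice and ran from 0.90 to 3.77 in the other 15. Among 8 tested genes of calcium release and excitation 5 did so: Ryr2, the calcium release channel, read 0.21 in mouse 35 and 0.46 to 1.90 in the other 15, and was not well above background in mice 24 and 28. Pln, the calcium pump inhibitor phospholamban, reached 1.18 and was well above background in 10 mice, none of them mice 24, 28 or 35. Of 5 tested hormone and transcription factor genes none did so, and of 6 other cardiomyocyte genes 1 did.

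Mice 24, 28 and 35 were not the lowest 3 for Myl2, Myh7 or Irx4, the tested genes of a list for ventricle. Myl2, the ventricular regulatory light chain, lay between -0.27 and 0.68, was well above background in 12 mice, and put mice 24, 28 and 35 inside the range of the others, although its r with the mean of the 10 genes over 15 mice was 0.707. Its red signal was at most 165 and that of Irx4 110 to 165, close to the median signal of an array, so that neither had room to fall in these mice. Myh7, the beta heavy chain, lay between 4.39 and 5.33 in all mice, and its r was -0.35. As Myh6 is the main myosin motor of the adult mouse heart, Myh7 is no sure marker of mouse ventricle. No tested gene of this list could therefore show how much ventricular muscle a sample held. Nppb, which encodes another natriuretic peptide of the heart, was well above background in 8 mice and was not tested. Myl3, the ventricular and slow-muscle light chain described above, had these mice lowest but is 1 of the 10 genes, which were chosen on such values. Of 6 further genes listed for atrium, Mybphl (r = 0.982 over 15 mice) and Kcnj5 (r = 0.81), a potassium channel subunit, had mice 24, 28 and 35 lowest, while Gja5 (r = -0.15), a connexin of atrial muscle and arterial endothelium, did not. The other 3, Bmp10, Sbk2 and Kcnj3, were well above background in 6, 1 and 0 mice.

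By dose, 0 of the 51 further heart probes were called at D1, D2 or D3 with all mice by limma, while 7, 1 and 3 had an unadjusted p under 0.05, against the 19.7%, 14.7% and 26.2% of all probes. Their median log2 change was 0.36, 0.09 and 0.02. Without mouse 24 Des, the intermediate filament desmin, was called at D1 (0.70, limma adjusted p = 0.0347), where 1.1% of all probes were. Without mice 24, 28 and 35, which raises the treated means of genes that share their low values, 4 of the 51 probes were called at D1, against 1.19% of all probes: those of Ckmt2 (1.63), Mybphl (1.35), Hspb7, a heat shock protein of muscle (0.96), and Des (0.70), each higher than in D0. Ckmt2 and Mybphl had these mice lowest. Hspb7 read 0.73, 0.66 and 0.82 in mice 24, 28 and 35, against a median of 1.19 in the other 15. Des did not share the low values, at 1.45, 1.48 and 1.34 against a median of 1.40. With red alone, where 1.07% of all probes were called, Gja5 was lower at D1 (-0.59, limma adjusted p = 0.00552). With the ratio and all mice the change of the brighter Gja5 probe was of similar size. It was -0.49 ± 0.14 (SE, limma adjusted p = 0.0539) at D1 and -0.47 ± 0.13 (SE, limma adjusted p = 0.0745) at D2. At D3 it was -0.46 ± 0.14 (SE, limma adjusted p = 0.0372), under the 1.5-fold that a call required. A dimmer Gja5 probe, well above background in 11 mice, changed by -0.07, -0.03 and 0.02 at D1, D2 and D3.

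Outside all lists, the gene whose pattern over mice was most like the mean of the 10 was Tpm1, an alpha-tropomyosin of striated muscle, among 14655 tested gene symbols. Ranked by r over 18 mice, it was followed by Mapk10, a stress kinase, Dhrs7c, a dehydrogenase of the sarcoplasmic reticulum, Abcc8, a regulatory subunit of potassium channels, Atp2a2, the calcium pump of heart and slow muscle, and Art1, an ADP-ribosyltransferase. Over the 15 mice with high values the r of these 6 was 0.967, 0.920, 0.932, 0.754, 0.928 and 0.956. Also among the 12 highest were Srl (0.915), which encodes the calcium-binding protein sarcalumenin, Txlnb (0.866), Fhod3 (0.837), a formin of sarcomeres, Hamp (0.708), which encodes the iron hormone hepcidin, and Mtus2 (0.745). Tpm1 read -1.24, -1.11 and -0.58 in mice 24, 28 and 35 and 0.08 to 3.07 in the others, and Hamp ran from 0.54 to 2.63 in the others and was not well above background in those 3. At the other end, the lowest r belonged to Diaph3, a formin, Smc2, a subunit of condensin, Rras, a small GTPase, Ppp1r14b, an inhibitor of protein phosphatase, Akr1a1, an aldehyde reductase, and Ccnb1, the mitotic cyclin B1. Over the 15 mice these had an r between -0.653 for Diaph3 and -0.556 for Ccnb1, and their within-group SDs were 0.09 to 0.22. Over all 31119 tested probes, 85 had mice 24, 28 and 35 as their lowest 3, of which 10 were probes of the 10 genes, 25 of the further heart genes and 1 of the skeletal muscle list, Myl1. Myh8, a myosin of developing skeletal muscle that is in no list, was also among the 85.

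Markers of other tissues that a lung section could include were read in the same mice. Of the skeletal muscle list 7 of 13 genes were tested, and its mean had an r of 0.803 with the 10 genes over 15 mice. Of the others, the fast myosins Myh1 and Myh4, the fast light chain Mylpf and the calcium store protein Casq1 were well above background in 0 mice, Myh2 in 2 and Actn3, the fast-muscle alpha-actinin, in 12. In contrast Tnnt3, Tnni2 and Tnnc2, the fast troponins, Atp2a1, the fast calcium pump, and Pvalb, the calcium buffer parvalbumin, were well above background in all 18 mice, with an r of 0.68, 0.70, 0.08, 0.35 and -0.01. Myl1, a fast-muscle light chain, was the 1 gene of the 7 tested with mice 24, 28 and 35 lowest. It was not well above background in them and reached 2.98 in mouse 22. Of the white fat list 5 of 7 genes were tested, its mean ran from 1.16 in mouse 35 to 3.98 in mouse 22 and had an r of 0.689, and the fat hormone gene Lep was well above background in 0 mice. Brown fat had an r of 0.916 over 3 tested genes, Cox7a1 (0.97), which is also a heart gene, Cidea (0.76), a lipid droplet protein that was well above background in 18 mice, and Ppargc1a (0.36), a coactivator of mitochondrial genes. Ucp1, the uncoupling protein that defines brown fat, was well above background in 3 mice. Smooth muscle (0.35), oesophagus (0.39), thymus (0.14), erythroid cells (-0.15), mesothelium (-0.04) and lung epithelium and vessels (-0.20) had a lower r over the same 15 mice. The part of fat and skeletal muscle in the values of the 10 genes was not tested.

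**Figure D5:**
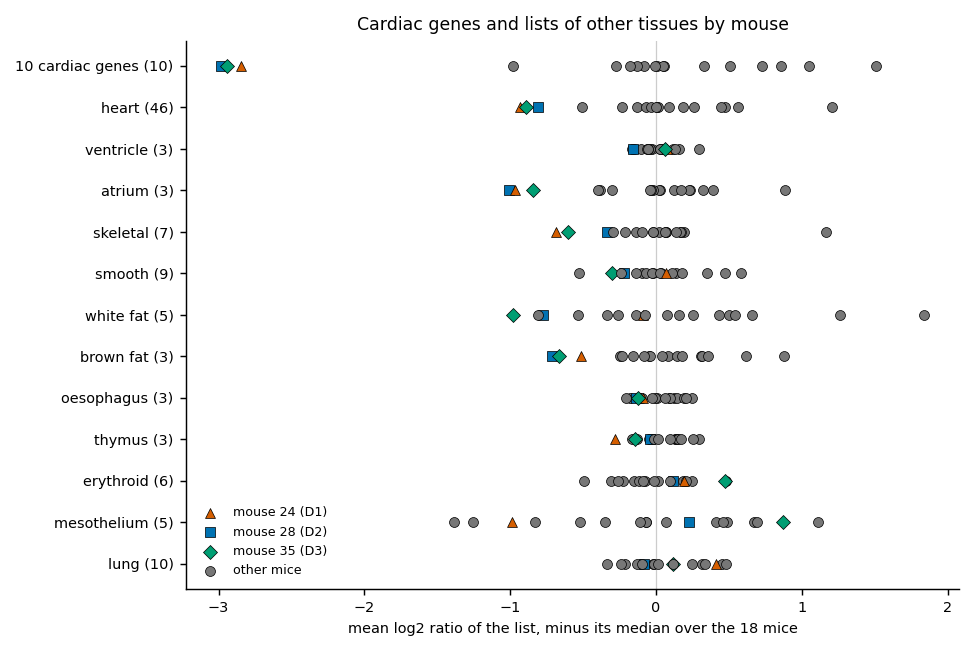
Mean log2 ratio of each gene list, minus its median over the 18 mice (horizontal axis), 1 point per mouse, for the 10 cardiac genes, further heart genes and lists of other tissues (vertical axis; tested genes in brackets). Mice 24, 28 and 35 (coloured symbols) are lowest for the 10 cardiac genes, further heart, atrial, skeletal muscle and brown fat genes, and within the range of the others for lung epithelium and vessels.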

How the data were processed

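Scanner output as deposited gives the median intensity of each spot in both channels, extracted per the file headers with Feature Extraction 11.0.1.1 on a G2505C scanner (the study's methods name other versions, and the headers were followed). Normalised log2 ratios that the authors deposited as a series table were an alternative (r = 0.995 to 0.998 with the ratios used here). Median signals of 19 arrays without background subtraction were normalised by loess (span 0.3) within each array in limma 3.58.1 (R 4.3.3), leaving out outlier spots, with control spots at weight 0. Spots of a probe were averaged, and so were the arrays numbered 35.1 and 35.2, taken as mouse 35. Probes were tested where red was well above background in at least 4 mice of 1 group. Limma was fitted to 18 mice of 4 groups with 1 shared spread. The study's MAANOVA test was not installed. Symbols came from the RefSeq table (21465 of 22765 RefSeq-type identifiers matched). The brightest red probe spoke for a gene. Further heart genes were named from a fixed list of 12 or if called under any setting (Kcnj5, Kcnj3, Sbk2 and Cox7a1 were added as genes of marker lists, after their values were seen), and genes outside the lists by the 12 highest and 6 lowest r with the mean of the 10 genes, of which 1 is not reported here. The 10 genes, the lists and the naming rule were chosen with earlier results of these data known. No dyes were swapped, so ratios are open to dye bias, and 18 mice limit the precision. The mice are separate animals per the labels. Alternatives were other signals and normalisations, no filter, slide as a block, mouse 23 left out or in D1, single arrays of mouse 35, 1 probe per gene, and leaving out each mouse. The fit was tested on simulated data.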

Additional observations from a re-analysis of the deposited data

Results flagged for a closer look

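Of 44 combinations of a value (10 genes and their mean) and a dose group, 12 held a highest or lowest mouse whose gap to the nearest other mouse, as a share of the group's range, was above Dixon's critical value for its number of mice. Chance flags about 1 in 20 groups of values that were not selected. These genes were chosen on the same ratios and move together, so the shares are a description, and their number is no test and no support for the pattern.

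Myh6 was lowest in D1 mouse 24, with a share of 0.977, and in D2 mouse 28, with 0.944. Mouse 28 was also set apart in D2 for Sln (0.789), Myl7 (0.747), Myl3 (0.735), Actc1 (0.722) and the mean of the 10 genes (0.73). Within D0, mouse 3 was low for Myl7 (0.718) and for the mean (0.781), and mouse 4 was high for Actc1 (0.782). Nppa was high in D3 mouse 34 (0.971) and in D2 mouse 23 (0.797), the mouse whose number falls among those of D1.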

How the results depend on the processing

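None of the 11 probes was called at any dose under any of 13 alternatives or without any 1 mouse. Their median log2 change without any 1 mouse ran from -0.44 to 1.03 for D1, from -0.39 to 0.56 for D2 and from -0.56 to 0.59 for D3, and changed sign at each dose. It also changed sign with the scanner software's processed signals at D1 (-0.26), with median centring at D2, and at D2 and D3 without mice 24, 28 and 35. That of the further heart genes ranged from -0.03 to 0.70, -0.05 to 0.27 and -0.18 to 0.24 without any 1 mouse, and was also below 0 without mouse 23 at D2 (-0.0046) and with processed signals at D3 (-0.04). Further heart probes called at D1 numbered 0 with all mice, 1 with red alone, 4 without mice 24, 28 and 35 and 0 to 1 without any 1 mouse. Without mice 24, 28 and 35 the median within-group SD of the 11 probes was 0.623 (1.48 with all, 1.25 to 1.54 without any 1 mouse) and the median pairwise r 0.672 (0.948 with all, 0.923 to 0.955 without any 1 mouse). Calls over all probes (328, 194 and 754) became 638, 346 and 1366 with processed signals and 12, 18 and 98 with median centring. With 1 probe per gene there were 175 at D1 and 403 at D3. Without any 1 mouse there were 283 to 393, 166 to 218 and 638 to 789. The cause was not tested, beyond fewer probes in the setting with 1 probe per gene. The D1 change of Actc1 (-0.15) was 0.10 with median centring and 0.38 with red alone, neither called. Where red was not well above background, as for Sln and Csrp3 in mice 24, 28 and 35, a ratio is not a measured level. No paired analysis was possible because the mouse numbers are not shared between groups. Slide as a block was fitted and left 0 of the 11 probes called at each dose.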

Other observations

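D1 mouse 22, which had the highest mean of the 10 cardiac genes, was also the highest mouse for 5 of 5 tested white fat genes, 2 of 3 brown fat genes and 4 of 7 skeletal muscle genes, but for 1 of 9 smooth muscle genes, of which 5 were highest in mouse 23. Acta1, the skeletal alpha actin that heart muscle also makes, read 1.34 in mouse 22 and from -2.25 to -1.27 in the other 17 mice. The white fat genes Adipoq, Cfd, Plin1, Retn and Cidec were each highest in this mouse, with log2 ratios of 3.70, 6.85, 2.20, 2.90 and 4.27, against lowest values of 0.11, 2.52, 0.15, 0.10 and 2.36. Of the 10 genes of lung epithelium and vessels 1 was highest in mouse 22: Lyve1, a gene of lymphatic endothelium and of lung vessels, at 7.29 against a lowest value of 5.00. Others of that list, Ager, Scgb1a1 and Cldn5, had their lowest values in mouse 22, at 5.29, 7.09 and 6.47.

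Over 18 mice, and chosen after their values were seen, the genes whose values followed Nppa most closely outside the lists were Rab33a (r = 0.883), a small GTPase, Cited4 (r = 0.862), a transcriptional coregulator, and Sh3bgr (r = 0.853). Their log2 ratios spanned -0.31 to 0.72, -0.49 to 0.88 and 1.90 to 3.51.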
